A study of Mus musculus with 33 samples.

Results

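Germinal vesicle (GV) oocytes that lack *Nlrp5* were compared here with oocytes of heterozygous littermates at the same nuclear stage, the non-surrounded nucleolus (NSN) stage. The comparison took 12 of the 33 sequenced oocytes, 4 *Nlrp5* -/- (oocytes 13, 14, 29 and 30) and 8 *Nlrp5* +/- (oocytes 45, 48, 53, 54, 56, 62, 63 and 64). Genotype was read from the sample labels, and stage from the study, which inferred it from NSN and SN (surrounded nucleolus) marker transcripts in the same libraries. Heterozygous oocyte 61 was left out because its stage is in conflict. All 33 oocytes were collected from 3-week-old females by collagenase digestion of ovaries, a method the study chose to limit somatic cells, and the poly(A) RNA of each single cell was taken apart from its DNA before amplification and sequencing. The *Nlrp5* allele is a 5 bp CRISPR deletion with a premature stop codon on a C57BL6/Babr background, carried on both chromosomes in *Nlrp5* -/- and on 1 in *Nlrp5* +/- oocytes. *Nlrp5* +/+ oocytes, used here only for their levels, mostly came from the colony in which the line was made rather than from the same litters.

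NLRP5, also called MATER or NALP5, is a protein that the mother deposits in the egg and that the embryo needs for its first cleavages. It is a core member of the subcortical maternal complex (SCMC), an assembly of oocyte proteins that includes OOEP, TLE6, KHDC3, PADI6 and ZBED3. An NSN oocyte still transcribes its genome, and transcription largely stops once the chromatin closes around the nucleolus at the SN stage. An oocyte is joined by gap junctions to the granulosa cells of its follicle, which supply it with metabolites.

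The labels name no mouse, so oocytes of 1 genotype may share a mother, and each genotype was treated as 1 sample. No p-value or standard error was therefore computed, and the spread given is that between single oocytes. Values are normalized counts, that is the reads counted on a gene divided by the size factor of that oocyte, and a log2 ratio is the log2 of the mean in *Nlrp5* -/- over the mean in *Nlrp5* +/- oocytes after adding 1 to each mean. A gene was called higher or lower where this ratio reached 2-fold, and the genotypes were said not to overlap where all 4 null oocytes lay on one side of all 8 heterozygous oocytes. The 12 libraries held 4223595 to 11411645 counts on genes, and 16686 to 19395 genes had a count. The first of the library indices is shared within sets of oocytes, and the 2 first indices of the null oocytes (one for 13 and 14, the other for 29 and 30) occur in none of the heterozygous oocytes, so index set and genotype cannot be told apart. The labels do not say whether an index set is a batch. The staging score, the mean log2 level of 105 NSN markers minus that of 59 SN markers, was -3.13 to -1.99 in null and -3.14 to -2.40 in heterozygous oocytes, with medians of -2.84 and -2.75. The defining oocyte markers were high in every library, since 8 oocyte transcripts such as *Gdf9* and *Zp2* together took 20038 to 29632 CPM, that is counts scaled to an equal library total.

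Most transcripts had a similar level in null and heterozygous NSN oocytes. Of 13621 genes whose normalized count averaged 10 or more, 73.8% differed by less than 0.5 on the log2 scale, and the median log2 ratio was -0.01. A level at least 2-fold lower in null oocytes was found for 427 genes (3.13%), and a level at least 2-fold higher for 389 (2.86%). Genes that in addition did not overlap between genotypes numbered 66 on the lower side (0.485%) and 35 on the higher side (0.257%). Whatever the size of the difference, all null oocytes lay below all heterozygous oocytes for 0.984% of genes and above them for 0.675%. The counts depended on which null oocytes were used. With the filter reapplied without oocytes 13 and 14, 799 genes were at least 2-fold lower and 257 at least 2-fold higher, and without oocytes 29 and 30 the counts were 659 and 642. Without oocyte 14 alone 774 genes were at least 2-fold lower, 189 of them without overlap, and 76 were higher without overlap. Of the 427 lower genes 322 were still at least 2-fold lower in oocytes 29 and 30 alone, and of the 389 higher genes 178, while 21 of the latter were then at least 2-fold lower. Correlations across genes between log2 values of 2 oocytes averaged 0.911 within null, 0.907 within heterozygous and 0.896 between genotypes. The first principal component held 21.4% of the variance and did not part the genotypes, whereas all null oocytes lay above all heterozygous oocytes on the second, which held 19.2%.

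**Figure D1:**
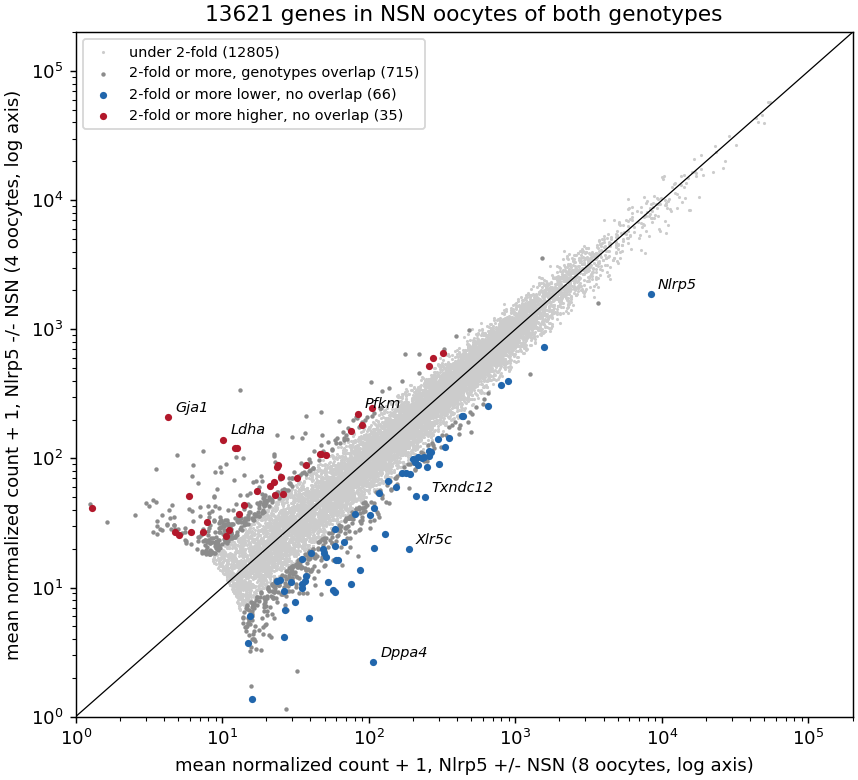
Mean normalized count plus 1 of each of 13621 genes in 8 *Nlrp5* +/- (horizontal) and 4 *Nlrp5* -/- (vertical) NSN oocytes, both axes logarithmic, with the line of equal means. The 66 blue and 35 red points are genes at least 2-fold apart whose genotypes do not overlap; *Dppa4* lies furthest below the line and *Gja1* furthest above it.

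*Nlrp5* itself (chromosome 7, 23385889 to 23441922, plus strand, GRCm38) was counted at 2330.0, 1203, 2204 and 1736 in null oocytes 13, 14, 29 and 30. The 8 heterozygous oocytes held 6093 to 12159 (median 7741). Every null oocyte lay far below every heterozygous oocyte, and the mean was 4.48-fold lower, a log2 ratio of -2.16 that stayed between -2.29 and -2.005 when any 1 oocyte was left out. Transcript was still counted in all null oocytes, a total of 7789 reads, and a 5 bp deletion leaves nearly the whole message for reads to fall on. In *Nlrp5* +/+ NSN oocytes, with 2 intact copies, the normalized count was 9646 to 26269, a range that overlaps the heterozygous one. No oocyte went against its genotype label at the level of this transcript.

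*Dppa4* had the lowest ratio of all genes tested. This gene encodes a DNA-binding protein that, with its partner DPPA2, helps to activate the embryonic genome. Its normalized count was 0, 1.22, 0 and 5.35 in null oocytes 13, 14, 29 and 30, a total of 11 reads (95% Poisson interval 5.49 to 19.7, counting error only), against 51.2 to 240.2 (median 79.8) in heterozygous oocytes. All null oocytes were at or near 0 and no heterozygous oocyte was. The log2 ratio of -5.33 depends on the constant added, and was -6.20 without oocyte 30 and -4.06 with 5 added in place of 1. *Nlrp5* +/+ NSN oocytes held 56.1 to 134. *Dppa2*, its neighbour on chromosome 16, was at 715, 641, 945 and 1010.0 in null and 663 to 1242 in heterozygous oocytes, which is a log2 ratio of -0.11.

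The *Xlr5* genes on the X chromosome, a cluster of near-identical copies among which reads may be split, were also lower. *Xlr5c* was counted at 1.68, 54.5, 1.45 and 17.8 in the null and at 76.8 to 313 (median 191) in the heterozygous oocytes (log2 ratio -3.23, or -4.54 without oocyte 14). The copies *Xlr5a* and *Xlr5b*, named after their values were seen, had log2 ratios of -2.56 and -2.26, again without overlap, and their values may rest on the same reads. Without oocyte 30 the *Xlr5b* ratio was -3.11. Their relative *Xlr3c* did not follow them, with 577, 73.4, 26.2 and 28.5 in null oocytes, where oocyte 13 stood alone, and 34.2 to 196 in heterozygous oocytes. Its ratio of 1.03 turned to -0.99 without oocyte 13. Of the 66 genes, 6 (9.09%) lie on the X chromosome, against 3.13% of all genes tested, and 3 of the 6 are the *Xlr5* copies.

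*Sppl2a*, an intramembrane protease of endosomes and lysosomes, had 0, 14.7, 29.1 and 6.54 normalized counts in null and 50.01 to 122 (median 85.5) in heterozygous oocytes. Its log2 ratio was -2.67, and -3.43 without oocyte 29. *Dync1i1*, an intermediate chain of the dynein motor, stood at 3.36, 9.18, 17.4 and 8.91 against 32.8 to 145 (median 65.3), a log2 ratio of -2.82. *Blzf1*, a Golgi protein, was at 169.9, 52.6, 90.1 and 47.5 in null and 224 to 399 in heterozygous oocytes (log2 ratio -1.73). For each of these the null oocytes varied widely among themselves and still lay below the lowest heterozygous oocyte.

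*Txndc12*, a thioredoxin-like protein of the endoplasmic reticulum, was measured at 28.6, 80.2, 37.8 and 49.9 in null oocytes. Heterozygous oocytes held 194 to 315 (median 238) and *Nlrp5* +/+ NSN oocytes 195 to 323, so the null oocytes were well apart from both, with a log2 ratio of -2.26 to the heterozygous mean. *Faap20*, which acts in the Fanconi anaemia DNA repair pathway, was at 11.8, 25.1, 23.3 and 17.2 against 52 to 224 (median 90.00), a log2 ratio of -2.41. *Mad2l1bp*, which silences the spindle checkpoint, was at 43.7, 79.6, 118 and 97.4 against 119 to 529 (median 208), where null oocyte 29 came within 1 count of the lowest heterozygous oocyte and the log2 ratio was -1.54.

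Zinc finger genes were represented by *Zfp141* and *Zfp410*. *Zfp410*, whose product controls genes of a chromatin remodelling complex, had 47.1, 74.7, 46.5 and 33.3 normalized counts in null and 115 to 317 (median 215) in heterozygous oocytes, a log2 ratio of -2.03. *Zfp141* had 11.8, 23.9, 53.8 and 10.1 against 64.6 to 234 (median 121). Its log2 ratio was -2.32 and became -3.00 without oocyte 29, the highest of the null oocytes. Taken over all 299 tested genes with a Zfp name, a group picked after its values were seen, 17 (5.69%, against 3.13% of all genes tested) were at least 2-fold lower and 3 (1.00%, against 2.86%) at least 2-fold higher. The median log2 ratio was -0.01, as over all genes. The transcript *Gm49719*, named by its rank among genes with a mean of at least 50 and no overlap, was at 25.2, 16.5, 17.4 and 26.1 against 30.5 to 196 (median 36.2), where heterozygous oocyte 56 was high and the log2 ratio moved from -1.60 to -1.14 without it.

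**Figure D2:**
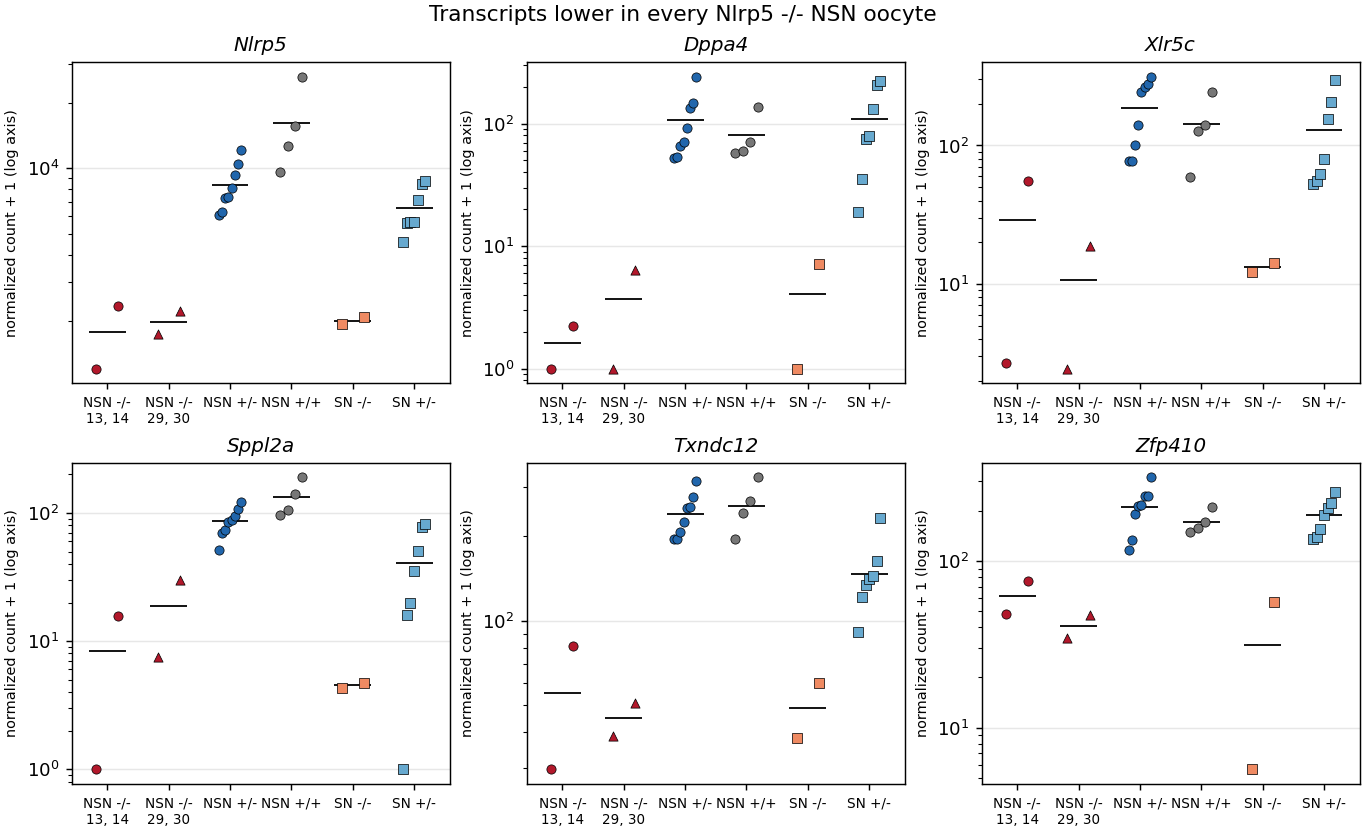
Normalized count plus 1 (logarithmic axis) of 6 transcripts in each oocyte, with a line at the mean, for null NSN oocytes 13 and 14 (red circles) and 29 and 30 (red triangles), 8 *Nlrp5* +/- NSN oocytes (blue), 4 *Nlrp5* +/+ NSN oocytes (grey), 2 null SN oocytes (orange squares) and 7 *Nlrp5* +/- SN oocytes (light blue squares). In all 6 panels the 4 null NSN oocytes sit below the 8 heterozygous ones, and for *Dppa4* they reach no more than 5.35 normalized counts.

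Oocytes at the SN stage share no cell with this comparison, and they were used to look up the genes set apart at the NSN stage. There were 2 null SN oocytes (7 and 31) and 7 heterozygous ones. Of the 66 genes lower at NSN without overlap, 41 were at least 2-fold lower at SN too, where 5.92% of all genes tested were, and none was at least 2-fold higher. Both null SN oocytes lay below all 7 heterozygous SN oocytes for 34 of the 66, against 5.39% of all genes. The median log2 ratio of the 66 at SN was -1.26, and that of all genes 0.02. Leaving out *Nlrp5* itself left 40 of 65 genes at least 2-fold lower.

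Oocyte 31 carries the same first index as null NSN oocytes 29 and 30, whereas the first index of oocyte 7 occurs in none of the 12 oocytes compared. Set alone against the heterozygous SN mean, oocyte 7 was at least 2-fold lower for 39 of the 66 genes (14.4% of all genes) and higher for none. Oocyte 31 was lower for 40 (7.27% of all genes) and higher for 1. *Dppa4* was counted at 6.19 and 0 in oocytes 7 and 31 and at 18.1 to 219 in heterozygous SN oocytes. *Txndc12* was at 37.2 and 58.9 against 90.4 to 231, *Xlr5c* at 11.1 and 13.2 against 52.1 to 294, and *Nlrp5* at 1932 and 2066 against 4607 to 8755. For all 4 both null SN oocytes lay below every heterozygous SN oocyte. *Sppl2a* did not part the SN genotypes, with 3.72 and 3.31 against 0 to 80.7, because 1 heterozygous SN oocyte was at 0.

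The genes higher at NSN were found higher at SN less widely. Of the 35, 9 were at least 2-fold higher at SN, where 3.92% of all genes were, and 2 were at least 2-fold lower. Both null SN oocytes exceeded all heterozygous SN oocytes for 6 of the 35, against 5.55% of all genes, and the median log2 ratio was 0.40. Taken singly, oocyte 7 was at least 2-fold higher for 10 of the 35 genes (7.14% of all) and oocyte 31 for 7 (4.35% of all), and at least 2-fold lower were 3 in oocyte 7 and 7 in oocyte 31. The difference between the lower and the higher genes in this respect was not tested.

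**Figure D3:**
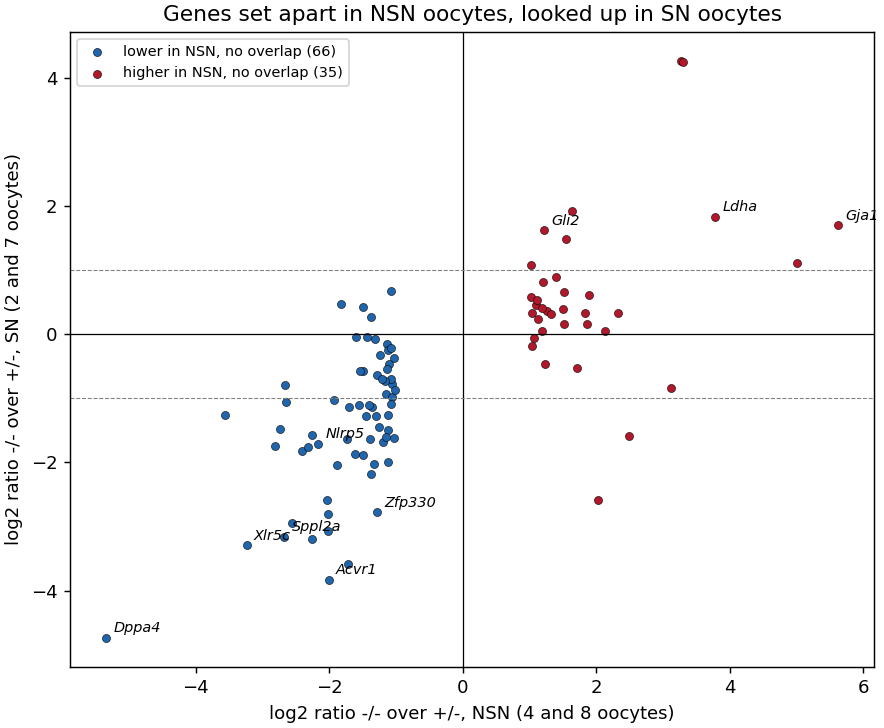
Log2 ratio of *Nlrp5* -/- over *Nlrp5* +/- means in NSN oocytes (horizontal, 4 and 8 oocytes) and in SN oocytes (vertical, 2 and 7 other oocytes) for the 66 genes lower (blue) and 35 genes higher (red) at NSN without overlap; dashed lines mark 2-fold at SN. Of the blue points 62 lie below 0 at SN and 41 below the lower dashed line, and of the red points 28 lie above 0 and 9 above the upper one.

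On the higher side, the 5 largest ratios among genes with a mean of at least 50 belonged to transcripts that were highest in null oocytes 13 and 14. *Gja1* (chromosome 10, 56377330 to 56402513, plus strand), which encodes connexin 43, the gap junction protein of granulosa cells, had 348, 455, 18.9 and 11.9 normalized counts in null oocytes 13, 14, 29 and 30. Heterozygous oocytes had 0 to 7.49 (median 2.48), and *Nlrp5* +/+ NSN oocytes 0 to 4.24. The genotypes did not overlap, but the log2 ratio of 5.62 became 4.89 without oocyte 14 and 1.95 without oocytes 13 and 14. *Ldha*, the lactate dehydrogenase subunit that dominates in somatic cells, was counted at 126, 378, 27.6 and 24.4 in null and 3.21 to 20.3 (median 8.10) in heterozygous oocytes. Its log2 ratio of 3.78 was 2.56 without oocyte 14 and 1.41 without both. *Ldhb*, the subunit an oocyte mainly uses, was far more abundant, at 37931, 52232, 27897 and 40646 against 29176 to 84593, with no call.

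*Inha*, the alpha subunit of the granulosa hormone inhibin, was at 473, 799.8, 56.7 and 20.8 in null and 1.04 to 26.8 (median 12.6) in heterozygous oocytes, so oocyte 30 lay within the heterozygous range. The log2 ratio was 4.67 with all 4 null oocytes, 3.79 without oocyte 14 and 1.58 without 13 and 14. *Kctd14* and *Tceal9* followed the same pattern, with 94.2, 486, 11.6 and 9.51 and 222, 555, 34.9 and 40.4 against 1.83 to 56.8 and 13.4 to 87.7. Their log2 ratios of 2.69 and 2.53 became 0.75 and 1.43 without oocyte 14, and to -1.02 and 0.06 without both.

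Some granulosa and cumulus markers were also higher in oocytes 13 and 14. Of 16 listed markers, 11 passed the filter on low counts, and 6 of these were at least 2-fold higher in null oocytes (2.86% of all genes), with a median log2 ratio of 2.28 that was 0.18 over the same 11 without oocytes 13 and 14. A marker that passed only through the oocytes in which it was high had to differ, so the count is no support. All 16 had a count in at least 2 null and 3 heterozygous oocytes, and none was at 0 throughout. Summed over all 16, they took 298 to 747 CPM in null and 311 to 433 in heterozygous oocytes, and *Serpine2*, *Cyp19a1*, *Nr5a2* and *Kitl* averaged over 50 normalized counts in heterozygous oocytes. The other 12, singled out after their levels were seen, summed to 198, 381, 29.6 and 14 CPM in null oocytes 13, 14, 29 and 30, and to 2.22 to 31.3 in heterozygous oocytes, where null oocyte 30 was inside the heterozygous range and oocyte 29 just under its top. The markers did not all go one way, since 8 of the 11 tested had a log2 ratio above 0, and the mean normalized counts were 20.9 in null and 26.5 in heterozygous oocytes for *Fshr*, 278 and 299.8 for *Cyp19a1* and 1459.7 and 1691 for *Serpine2*. The activin inhibitor *Fst* was counted at 57.2, 105, 0 and 6.54 in null and 0 to 8.04 in heterozygous oocytes, and the cyclin *Ccnd2* at 293, 501, 98.9 and 19.6 against 6.94 to 133. Without oocyte 14 their log2 ratios of 3.78 and 2.28 became 2.80 and 1.55. Null SN oocytes held 41.4 and 137 CPM of these 12 markers and heterozygous SN oocytes 5.57 to 58.0. How far RNA of granulosa cells takes part in the higher values was not tested.

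Markers of other ovarian cells were counted too. The 9 theca and interstitial markers summed to 12.2 to 64.3 CPM in null and 11.7 to 58.9 in heterozygous oocytes. The 12 markers of stroma, vessels and blood summed to 86.2 to 121 and 58.1 to 89.2. The 6 of them that passed the filter all had a log2 ratio above 0, with 3 at least 2-fold higher (2.86% of all genes). Their median was 0.77 with all null oocytes and likewise without oocytes 13 and 14. *Hbb-bs*, with means of 38.4 in null and 5.26 in heterozygous oocytes, passed only through the null oocytes and so had to differ. Nothing is therefore read from the count. Among the markers that did not pass, *Pdgfra* went the other way, with means of 1.28 in null and 3.80 in heterozygous oocytes. The part of these markers in the higher values was not tested. The leukocyte marker *Ptprc* had no count in any null oocyte and in 1 heterozygous oocyte. The red cell transcript *Hbb-bs* was at 11.8, 106, 1.45 and 34.5 in null oocytes against 0 to 19.3, and its log2 ratio of 2.65 became 1.43 without oocyte 14 and 3.21 without heterozygous oocyte 63.

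Another set of transcripts was higher in all 4 null oocytes to a similar degree. *Pfkm*, the muscle form of phosphofructokinase, which sets the pace of glycolysis, was at 257, 176, 217 and 232 in null and 42.6 to 119.8 (median 87.1) in heterozygous oocytes. Its log2 ratio was 1.40 and stayed at 1.42 without oocytes 13 and 14. *Gli2*, a transcription factor of Hedgehog signalling, was at 336, 259, 176 and 210.3 against 26.8 to 153 (median 102) (log2 ratio 1.22). *Pask*, a nutrient-sensing kinase, was at 139.6, 89.3, 102 and 96.2 against 1.22 to 70.7 (median 52.9), where 1 heterozygous oocyte was near 0 and the log2 ratio was 1.20.

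The transcription factor gene *Etv5* was at 58.9, 57.5, 112 and 126 in null and 19.8 to 52 (median 37) in heterozygous oocytes, higher in 29 and 30 than in 13 and 14, with a log2 ratio of 1.26. *Arhgap29*, a regulator of the GTPase RhoA, was at 728, 449, 704 and 534 against 122 to 448, and its lowest null oocyte equalled the highest heterozygous oocyte to within 1 count (log2 ratio 1.13). *Tpst1*, *Synpo*, *Dbr1*, *Ints3* and *Hid1*, among them a sulphotransferase of secreted proteins, an actin-associated protein, the enzyme that opens intron lariats and an Integrator subunit, had log2 ratios from 1.03 to 1.20. Each of these 5 went under 2-fold when 1 oocyte was left out, with 0.97 for *Tpst1* and 0.83 for *Dbr1* without oocyte 13, 0.99 for *Synpo* without 14, 0.92 for *Ints3* without 29 and 0.94 for *Hid1* without heterozygous oocyte 54.

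*Pde2a*, a cyclic nucleotide phosphodiesterase, was named after its values were seen and stood out among the higher genes of lower count. It was counted at 116, 88.1, 138 and 136 in null oocytes 13, 14, 29 and 30, at 0 to 31 (median 9.24) in heterozygous oocytes and at 5.91 to 34 in *Nlrp5* +/+ NSN oocytes. All null oocytes lay above all others, and the log2 ratio of 3.30 stayed between 3.12 and 3.68 when any 1 oocyte was left out. At SN its count was 28.5 and 179 in oocytes 7 and 31 against 0 to 10.8. The annotated gene *Gm45837* spans the same stretch of chromosome 7 (101410886 to 101512819, plus strand), and with a log2 ratio of 3.27 it may hold the same reads.

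**Figure D4:**
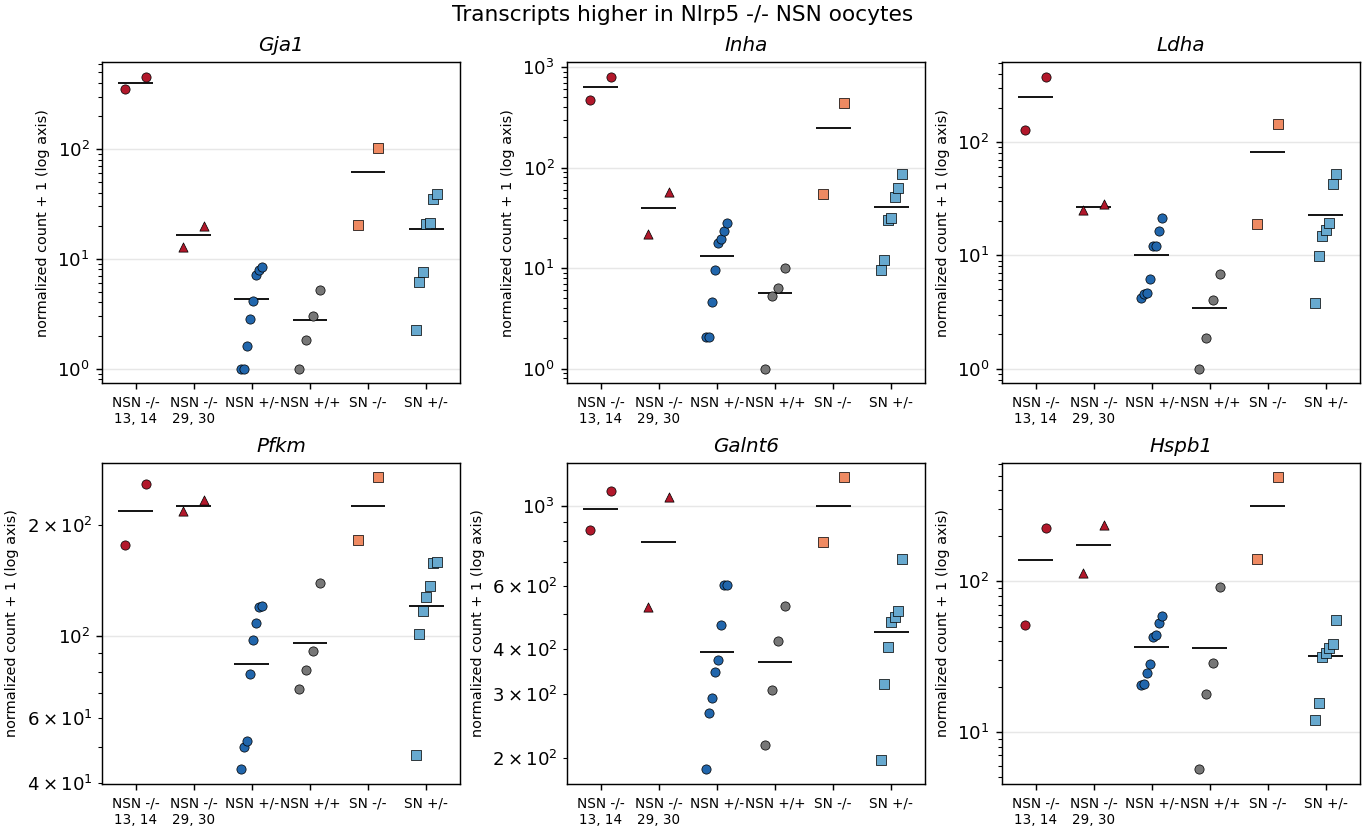
Normalized count plus 1 (logarithmic axis) of 6 transcripts in each oocyte, with groups, colours and mean lines as in the plot of lower transcripts. *Gja1*, *Inha* and *Ldha* are highest in null oocytes 13 and 14, whereas *Pfkm* is raised alike in all 4 null NSN oocytes at 176 to 257, above the heterozygous maximum of 120.

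The gene lists are read against all genes tested, of which 5.99% were past 2-fold in one direction or the other, so that none or 1 past 2-fold in a list of 10 to 23 genes is near that share and says nothing particular to the list. All 16 members of the SCMC list passed the filter, *Nlrp5* was the one past 2-fold (5.99% of all genes), and the median log2 ratio was -0.04. *Ooep* came next, at 5183, 12499.7, 6797 and 9139 in null and 10496 to 24285 (median 13478) in heterozygous oocytes, a log2 ratio of -0.89 with oocyte 14 inside the heterozygous range. *Tle6*, *Padi6*, *Zbed3*, *Khdc3* and *Nlrp2* had ratios between -0.22 and 0.27. Among the neighbouring NLRP family genes, whose reads may be split between close copies, *Nlrp4e* had the largest difference, -0.40.

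Of 14 egg surface and secreted factors none was past 2-fold (5.99% of all genes), and the median was 0.00. The growth factor genes *Gdf9* and *Bmp15*, by which the oocyte directs its follicle, had log2 ratios of 0.07 and 0.01. The lowest were *Cd9*, needed for sperm-egg fusion, with 1894, 2644, 1678 and 1877 against 2302 to 4798 (median 3387) and a ratio of -0.74, and the oocyte secreted genes *Oosp2* and *Oosp1* with -0.73 and -0.69. Of 15 tested oocyte transcription factors *Dppa4* was the one past 2-fold (5.99% of all genes). The median was -0.04, and *Foxo3* and *Sall4* had ratios of 0.62 and 0.59.

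For DNA methylation and chromatin none of 22 members was past 2-fold (5.99% of all genes), with a median of 0.24. *Dppa3*, which shields maternal methylation after fertilization, was at 9387, 10334, 5695 and 7939 in null and 8239.9 to 23196 (median 15772) in heterozygous oocytes, a ratio of -0.87 with overlap. The maintenance genes *Dnmt1* and *Uhrf1* had ratios of 0.33 and 0.55, and *Dnmt3l*, the cofactor of de novo methylation in oocytes, had -0.07 with 1369, 906, 1246 and 1466 against 921 to 1618. *Tet2* and *Dnmt3b*, with means of 53.9 and 133, had 0.82 and 0.80, and *Tet2* had 1.09 without oocyte 29.

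In the meiotic list, again with none of 23 past 2-fold (5.99% of all genes) and a median of 0.13, 2 genes were higher in all null oocytes than in any heterozygous oocyte, which 0.675% of all genes were. *Bub1b*, a spindle checkpoint kinase, was at 10708, 7482, 10076 and 12293 in null and 4226 to 7432 (median 6066) in heterozygous oocytes (log2 ratio 0.79), and *Cdc25c*, a phosphatase that activates CDK1, was at 185, 126, 139.6 and 147 against 40.7 to 123 (median 75.8) (0.94). Without heterozygous oocyte 48 the *Cdc25c* ratio was 1.06. At SN the ratios were 0.38 and -0.43. *Fbxo5*, an inhibitor of the anaphase-promoting complex, stood lowest of those with a mean count of at least 50, at -0.71.

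Transcripts for maternal mRNA storage and decay had a median of 0.19 over 19 genes. The single gene past 2-fold (2.86% of all genes upwards) was *Tut4*, a uridylyl transferase named after its values were seen. It had 92.5, 206, 4.36 and 4.16 against 0.619 to 24.6. Its log2 ratio of 3.13 became 1.96 without oocyte 14 and -0.76 without both 13 and 14. *Tut4* passed the filter on low counts only through oocytes 13 and 14 and so had to differ, and nothing is read from the count. *Cnot7*, *Zar1* and *Pabpc1l* had 0.53, -0.46 and 0.41. Of 10 tested calcium store and channel genes none was past 2-fold (5.99% of all genes), and *Trpv3* and the calcium buffer gene *Calr* had the extremes of 0.57 and -0.56. In the cytoskeleton list 1 of 17 was past 2-fold (5.99% of all genes). This was *Tpm3*, a tropomyosin, at 75.7, 104, 58.2 and 60.6 in null and 149.9 to 262 (median 179) in heterozygous oocytes, with a log2 ratio of -1.33 at NSN and -2.03 at SN.

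In the heat shock list 14 of 17 log2 ratios were above 0, where 49.3% of all genes were, and the median was 0.20. Past 2-fold upwards were 2 of the 17, against 2.86% of all genes. *Hspb1*, the small heat shock protein HSP27, was at 50.5, 225, 112 and 233 in null and 19.4 to 57.8 (median 34.3) in heterozygous oocytes, so that oocyte 13 alone fell inside the heterozygous range. The log2 ratio was 2.10, and 2.25 without oocytes 13 and 14. *Hspa1b*, the inducible HSP70 gene, was at 30.3, 49, 37.8 and 53.5 against 0 to 29.7 (median 12.2) without overlap, a ratio of 1.64, and its reads may be shared with the near copy *Hspa1a*. The cochaperones *Hsph1* and *Dnajb1* did not overlap either (as 0.675% of all genes, with null oocytes above), at 3558, 3647, 3885 and 4520.0 against 2246 to 3148 and 1399.7, 1594, 1679 and 1496 against 863 to 1334, with ratios of 0.55 and 0.54. At SN all 4 ran in the same direction, with log2 ratios of 3.31, 1.92, 0.88 and 0.73 in the same order. In *Nlrp5* +/+ NSN oocytes *Hspb1* ranged from 4.68 to 90.3.

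Among steroid hormone genes 3 of 11 were past 2-fold upwards and 1 downwards, against 2.86% and 3.13% of all genes, and none was past 2-fold upwards without oocytes 13 and 14. *Hsd17b1* and *Cyp17a1* passed the filter only through the genotype in which they were high and so had to differ, and nothing is read from the count. *Hsd17b1*, the granulosa enzyme that makes estradiol, was at 119, 291, 1.45 and 7.72 in null and 0 to 13.4 in heterozygous oocytes, a log2 ratio of 4.42 that became 3.14 without oocyte 14. *Hsd3b1* was at 252, 1213, 49.4 and 51.7 against 15.2 to 463 (median 63.3), a log2 ratio of 1.92 that became 0.19 without oocyte 14, 2.91 without heterozygous oocyte 54 and -1.01 without 13 and 14. *Cyp17a1*, the theca enzyme of androgen synthesis, was at 0, 1.84, 1.45 and 1.78 against 0 to 193 (median 10.3), and its ratio of -3.84 became -2.07 without oocyte 54. *Cyp11a1* had 1.19, and 0.57 without oocyte 14. Cholesterol synthesis and uptake had none of 16 past 2-fold (5.99% of all genes) and a median of 0.21, with *Sc5d*, *Idi1* and *Hmgcs1* at 0.58, 0.55 and 0.51.

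The glutathione and redox list had the lowest median of the lists named by function, -0.33 over 16 genes. *Txndc12* was the one past 2-fold (5.99% of all genes). *Gstm5* was at 993, 1740.4, 755 and 998 in null and 1221 to 3319 (median 1679.7) in heterozygous oocytes, and *Gsta4* at 421, 502, 128 and 309 against 369 to 1081 (median 567), with log2 ratios of -0.85 and -0.78 and overlap in both. Without oocyte 14 these 2 ratios were -1.15 and -1.03. In glycolysis 3 of 16 were past 2-fold upwards, *Ldha*, *Pfkm* and *Pgam1*, against 2.86% of all genes, and the median was 0.06. *Ldha* passed the filter on low counts only through the null oocytes and so had to differ, and nothing is read from the count. *Pgam1* had 167, 380.0, 98.9 and 147 against 63.4 to 121, and its ratio of 1.07 became 0.55 without oocyte 14.

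Cell death genes had none of 12 past 2-fold (5.99% of all genes) and a median of 0.00, with *Bcl2l1* and *Trp53* at 0.51 and 0.48. The 13 mitochondrially encoded mRNAs had a median of -0.10. *mt-Atp6* alone was past 2-fold (2.86% of all genes upwards), at 267, 6.73, 244 and 263 against 5.94 to 197 (median 50.4) and with oocyte 14 near the bottom of the heterozygous range, while *mt-Co1* had -0.93 (-1.11 without oocyte 29) and *mt-Nd6* -0.55. All genes with an mt- name, the 13 mRNAs among them, took 0.152% to 0.332% (median 0.243%) of counts in null oocytes. In heterozygous oocytes they took 0.140% to 0.618% (median 0.345%). At SN the share of these genes was lower in both null oocytes, at 0.0667% and 0.104% against 0.243% to 0.420% in heterozygous oocytes. Whether the difference varies with stage was not tested.

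**Figure D5:**
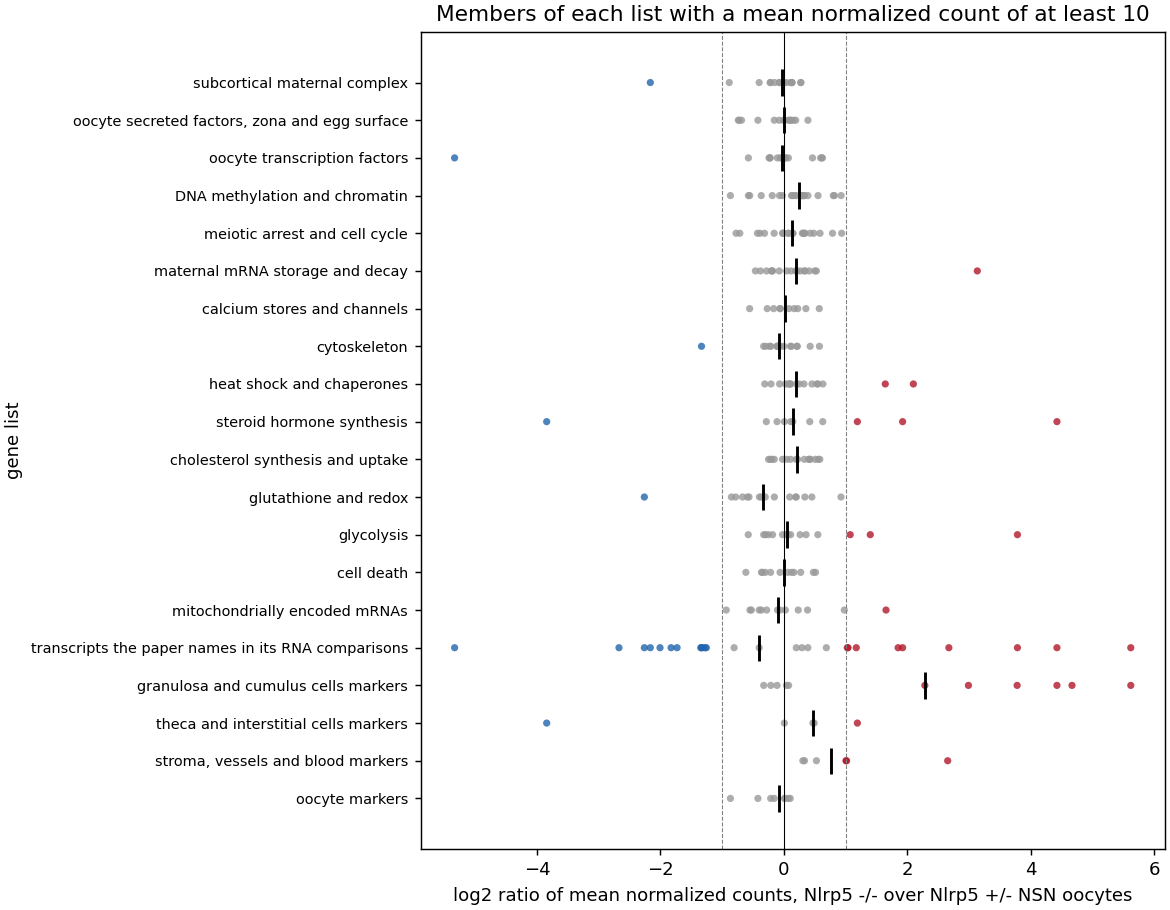
Log2 ratio of mean normalized counts, *Nlrp5* -/- over *Nlrp5* +/- NSN oocytes, for each member of 16 gene lists and 4 marker lists with a mean of at least 10; black bars are list medians, dashed lines mark 2-fold, and red and blue points lie past it. The medians of the 15 lists named by function lie between -0.33 and 0.24, and that of the granulosa markers at 2.28.

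The 27 transcripts that the study names in its RNA comparisons were chosen on these same null oocytes, so their directions are not independent evidence. Of them, 12 were at least 2-fold lower and 9 at least 2-fold higher here, against 3.13% and 2.86% of all genes, with a median of -0.40. Among the lower ones, *Acvr1*, a type I receptor for BMP and activin signals, was at 0, 7.96, 10.2 and 8.91 in null and 11.9 to 50.05 (median 30.2) in heterozygous oocytes without overlap (log2 ratio -2.01). *Zfp330*, at 90.8, 165, 188 and 132 against 290.3 to 398 (median 357), and *Adprm*, at 85.8, 179, 94.5 and 83.2 against 197 to 339.5 (median 269), were likewise apart, with ratios of -1.28 and -1.26. *Itgb4*, *Sco1* and *Zfp512* had -1.83, -1.35 and -1.32 with overlap, and *Kif3b*, a kinesin subunit, had -0.81, or -1.12 without oocyte 14.

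Of the higher ones, *Galnt6*, an enzyme that starts O-linked glycosylation, was at 1099, 854, 525 and 1058 in null and 185 to 603 (median 359) in heterozygous oocytes, with oocyte 29 inside the heterozygous range and a log2 ratio of 1.17. *Calb1*, a calcium-binding protein, was at 229, 125, 212 and 166 against 47.6 to 164 (median 77), a ratio of 1.04 at NSN, 0.91 without oocyte 13, and -0.17 at SN. *Thbs1* and *Mycl* were highest in oocyte 14, and their ratios of 1.85 and 2.67 became 0.90 and 0.79 without it. For *Mycl* the ratio was 4.06 without heterozygous oocyte 62. *Gstm1*, *mt-Cytb*, *Spata21*, *Pgs1* and *Psmf1* were within 2-fold, with ratios from -0.40 to 0.69, though *Gstm1* turned from 0.20 to -0.63 without oocyte 14.

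Exon length and abundance were not the same in the lower, the higher and all genes. Median exon length, taken from GENCODE vM39 on GRCm39, was 4548 bp for the 66 lower genes, 7513 bp for the 35 higher genes and 5864 bp for all genes with a length (99.4% of those tested). Long genes were among the 66 lower ones as well but were fewer. From the shortest to the longest quartile of length, 23, 23, 11 and 9 of the lower genes were counted. By quartile of length, from 108 to 3368 bp at the short end to 8999 bp or more at the long end, 5.35%, 3.75%, 1.71% and 1.59% of genes were at least 2-fold lower in null oocytes, and the median log2 ratio was -0.17, -0.05, 0.06 and 0.09. At SN the medians ran the other way, from 0.07 for the shortest to -0.06 for the longest quartile. Single oocytes differed in this respect. Relative to the heterozygous mean, the shortest quartile had a median of -0.28 in null oocyte 13, -0.29 in 29, -0.04 in 30 and 0.10 in 14, while heterozygous oocytes ranged from -0.12 to 0.44. The 66 lower genes had a median mean count of 78.5 and the 35 higher ones 43.2, both under the 165 of all genes tested, and abundance is also what the filter on low counts used. The part of transcript length and abundance in these values was not tested.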

How the data were processed

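Single GV oocytes were processed for RNA by the authors with a genome and transcriptome protocol that separates poly(A) RNA from DNA, and the amplified cDNA was made into Nextera XT libraries. Trimming by the authors used Trim Galore and alignment HISAT2. The authors left out shallow libraries and deposited raw counts per gene. The file headers name GRCm38, which is used here for coordinates, while the methods of the study name GRCm39. Of 35373 lines in the count table, 52 repeats of a gene were dropped. Stages came from the study, and 1 oocyte with conflicting stages was left out.

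Counts were divided by median-of-ratios size factors over the 12 oocytes, and genes with a mean of at least 10 were kept. Ratios of means had 1 added to each mean. Scripts used Python 3.11.15, numpy 2.4.6, pandas 2.3.3 and scipy 1.17.1, and the ratios were checked on simulated data with 200 changed genes. Because each library is 1 cell and no mouse is given, no test was run, and Poisson intervals cover counting error only. Genes named with values were *Nlrp5*, the 12 largest and 12 smallest ratios without overlap and the 5 largest and 5 smallest with or without overlap, all at a mean of at least 50. To these were added the transcripts the study names, and in each list the 3 largest absolute ratios at that mean with members typical of the list. Genes outside this rule, namely *Pde2a*, *Gm45837*, *Xlr5a*, *Xlr5b*, *Tut4*, *Hspa1b*, *Cyp17a1*, *Cyp11a1*, *Fst* and *Hbb-bs*, were chosen after their values were seen. The members and lists were chosen with earlier results of these data known. Alternatives changed the scaling, filter, added constant, summary and oocytes used. Deposited tables of the authors' own fold changes and p-values against *Nlrp5* +/+ oocytes, and a table of 1 read total per library, were not used.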

Additional observations from a re-analysis of the deposited data

Results flagged for a closer look

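In 11 of 224 groups of single values, 1 oocyte stood apart from the rest of its genotype by Dixon's criterion, and chance alone gives about 1 in 20. Among null oocytes, oocyte 13 had 0 normalized counts of *Acvr1* and 0 of *Cyp17a1*. Oocyte 14 had the highest *Adprm* at 179 and the highest *Gstm1* at 85.7, and the lowest *mt-Atp6* at 6.73. Among heterozygous oocytes, oocyte 63 was low for *Gli2* at 26.8, oocyte 53 for *Pask* at 1.22 and *Itgb4* at 0, and oocyte 48 for *Thbs1* at 0. Oocyte 56 was high for *Khdc3* at 13280.2 and for *Foxo3* at 984.

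Null oocyte 15 has no stage and was in no comparison. The 12 granulosa markers that are low in heterozygous oocytes took 1194 CPM (counts scaled to an equal library total) in it, against at most 31.3 in any heterozygous NSN oocyte. It shares its first library index with null oocytes 13 and 14.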

How the results depend on the processing

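The log2 ratio of *Nlrp5* stayed between -2.29 and -2.005 when each oocyte was left out in turn. The other summaries depended on the filter and on the oocytes used. With no filter, 1980 genes were at least 2-fold higher, 1478 lower, and 72 higher without overlap. With a minimum mean of 100 there were 37 higher and 79 lower genes, 7 and 29 of them without overlap. Without oocytes 13 and 14 there were 257 higher and 799 lower genes, 110 and 244 without overlap. Without oocytes 29 and 30, a setting chosen after seeing the data, the counts were 642 and 659, and 274 and 207. With oocyte 61 as heterozygous, 23 genes were higher without overlap and *Cyp11a1* turned to -0.67. Fewer null oocytes make non-overlap easier by construction, and for the other shifts the cause was not tested.

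Over single left-out oocytes the counts were 303 to 494 higher, 373 to 774 lower, 38 to 76 higher without overlap and 67 to 189 lower without overlap, the highest of the last 3 counts being without oocyte 14. Leaving out oocyte 29, 30 or 48 gave 67, 64 or 59 higher genes without overlap, and leaving out oocyte 30 gave 108 lower ones. Without oocyte 56 the first-component gap described next was -27.6. The difference of median genes detected was 478.5 and ranged from -407 to 1364, that of the staging score from -0.239 to 0.0635, and the gap between genotypes on the first principal component, -92.7 with all 12, from -91.2 to -0.685. That gap was -10.3 with oocyte 61 and -0.121 over the 500 most variable genes, always negative, which means overlap.

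Of 840 values of named genes under settings other than single left-out oocytes, 816 moved by less than the spread between oocytes, sign changes of ratios under 2-fold included, and 7 that had been past 2-fold changed sign. Besides *Cyp11a1* the latter were *Xlr3c*, at -0.38 by medians over oocytes, -1.62 without oocytes 13 and 14 and -0.99 to 1.39 over single left-out oocytes with the lowest without oocyte 13, and *Kctd14* at -1.02, *Mycl* at -0.33, *Hsd3b1* at -1.01 and *Tut4* at -0.76, all without oocytes 13 and 14. The median of the granulosa markers was then -0.17 with the filter reapplied. No paired analysis was possible because the labels name no mouse or litter and replicate numbers follow accession order only. Staging with markers past a stricter published fold could not be run, since no SN marker reaches it. The cause of these shifts was not tested.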
